A study of Mus musculus with 14 samples.

Results

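The 34 genes described here encode enzymes, carriers and binding proteins of hepatic fatty acid oxidation and ketone body metabolism. They were selected by gene symbol and make up 34 of the 19751 genes for which the array held a probe with a gene name. Their expression was followed in liver of male (M) and female (F) CD-1 mice, an outbred stock, killed when 3, 4 or 8 wk old. No treatment and no altered allele is named for any of the 6 groups. Liver RNA was pooled from 5 mice per pool at 3 wk and from 6 mice per pool at 4 and 8 wk. Competitive hybridization to dual-colour Agilent arrays gave 7 comparisons: M3/F3, M4/F4 and M8/F8 set male against female liver of 1 age, while M8/M3 and M8/M4 in males, and F8/F3 and F8/F4 in females, set 8 wk liver against younger liver. Each comparison had 2 arrays, made from different pools with the dyes exchanged, for 14 arrays in all. The spread between the 2 arrays therefore holds differences between pools and dyes and shows nothing of single mice, and the comparisons are not independent because they draw on the same 6 groups.

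Fatty acids taken up by the hepatocyte are bound by Fabp1 and activated to acyl-CoA by long-chain acyl-CoA synthetases. The carnitine shuttle carries long acyl chains into mitochondria, where dehydrogenation, hydration, a further dehydrogenation and thiolysis release acetyl-CoA in repeated rounds, while peroxisomes shorten very long and branched chains. In fasting and in suckling, much of the hepatic acetyl-CoA becomes ketone bodies, and the nuclear receptor PPARalpha is a known activator of many genes of these routes.

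Each array carried 43020 spots other than controls, of which 55.21% to 77.2% per channel were well above background and 0 were saturated. All 34 genes had a probe. The probe with the highest mean signal was read where there were several: 28 genes had 1 probe, 5 had 2 and Bdh1 had 3. For 33 genes the probe was well above background in all 28 readings (2 channels on each array). The exception was Crat, well above background in 22 of 28 readings at processed intensities of 12.77 to 41.71, so its ratios are those of a dim probe and it was not tested in M3/F3, M4/F4 and M8/F8. The hepatocyte markers Alb, Apoa1, Apob, Ttr, Serpina1a, Tat, Cps1 and Hnf4a were measured as a check of the labelled tissue, and 8 of 8 were bright enough to be tested in every comparison. Direction was taken from the labels, which give the dye of each pool. The methods text names the dyes of M3/F3 the other way round, but under the labels' direction Y-linked Ddx3y was 6.56, 6.29 and 6.59 higher in M3/F3, M4/F4 and M8/F8, and Xist was -5.32, -5.95 and -6.65 on the log2 scale. A reversed sign would put Xist higher in males. The 3 replicate 2 arrays with 8 wk male liver stood apart in fat cell transcripts. Adipoq, the adipocyte hormone adiponectin, was 3.25, 3.31 and 3.08 there (in M8/F8, M8/M3 and M8/M4), against -0.26, -0.71 and 0.19 on replicate 1. Cidec, a lipid droplet protein of adipocytes and fat-laden hepatocytes, was 2.93, 2.89 and 2.92 against 0.74, 1.30 and 1.25. Of 5 adipocyte markers 1 or 2 were bright enough to be tested in each comparison, 0 were called, and Lep was not well above background on any array. The calls of the 34 genes with 8 wk male liver, and some of their ratios, are therefore also given without these 3 arrays. Passes by adjusted p alone, and the values of listed genes outside the 34, are given from the full set of arrays.

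A gene was called where the limma test across all probes gave an adjusted p under 0.05 and the ratio lay beyond 1.5-fold in either direction, provided that both arrays of 1 or both groups were well above background. Of the 34 genes, 8 were called somewhere among the 7 comparisons, against a background of 23.1% of all named genes tested. They were Acsl3, Acsl5, Fabp1, Crat, Crot, Ehhadh, Acaa1b and Vnn1, and the other 26 genes were called in none of the comparisons. In M4/F4, 2 of 33 genes tested were called higher in males (background 0.612%) and 0 lower (background 0.971%). In M8/M3, 4 of 34 were called lower at 8 wk (background 10.0%) and 0 higher (background 7.81%). In M8/M4, 5 of 34 were called lower (background 6.38%) and 0 higher (background 4.44%). No gene of the group was called in M3/F3 (background 0.517%) or M8/F8 (6.40%), nor with age in females, in F8/F3 (11.7%) or F8/F4 (6.00%). At an unadjusted limma p under 0.05, 5, 16, 11 and 11 genes passed in those 4 comparisons (backgrounds 11.8%, 39.9%, 51.8% and 39.3%), each within 1.5-fold. With an error-weighted mean of the arrays, the counts there were 0, 1, 1 and 1, the 1 gene being Vnn1 each time. That mean used the deposited errors of each array and, unlike the study's own error model, no error estimated from replicate arrays. Without the 3 replicate 2 arrays of 8 wk males, which left 3 residual degrees of freedom in place of 6, only Vnn1 was called in M8/M3 (7.42% of all genes) and in M8/M4 (3.19%). The ratios of the other genes called there kept their direction, at -0.65 to -0.73 in M8/M3 and -0.50 to -1.001 in M8/M4. In that fit Fabp1 remained called in M4/F4 (adjusted p = 0.0483), and Acaa1b, at the same ratio, had an adjusted p of 0.072.

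**Figure D1:**
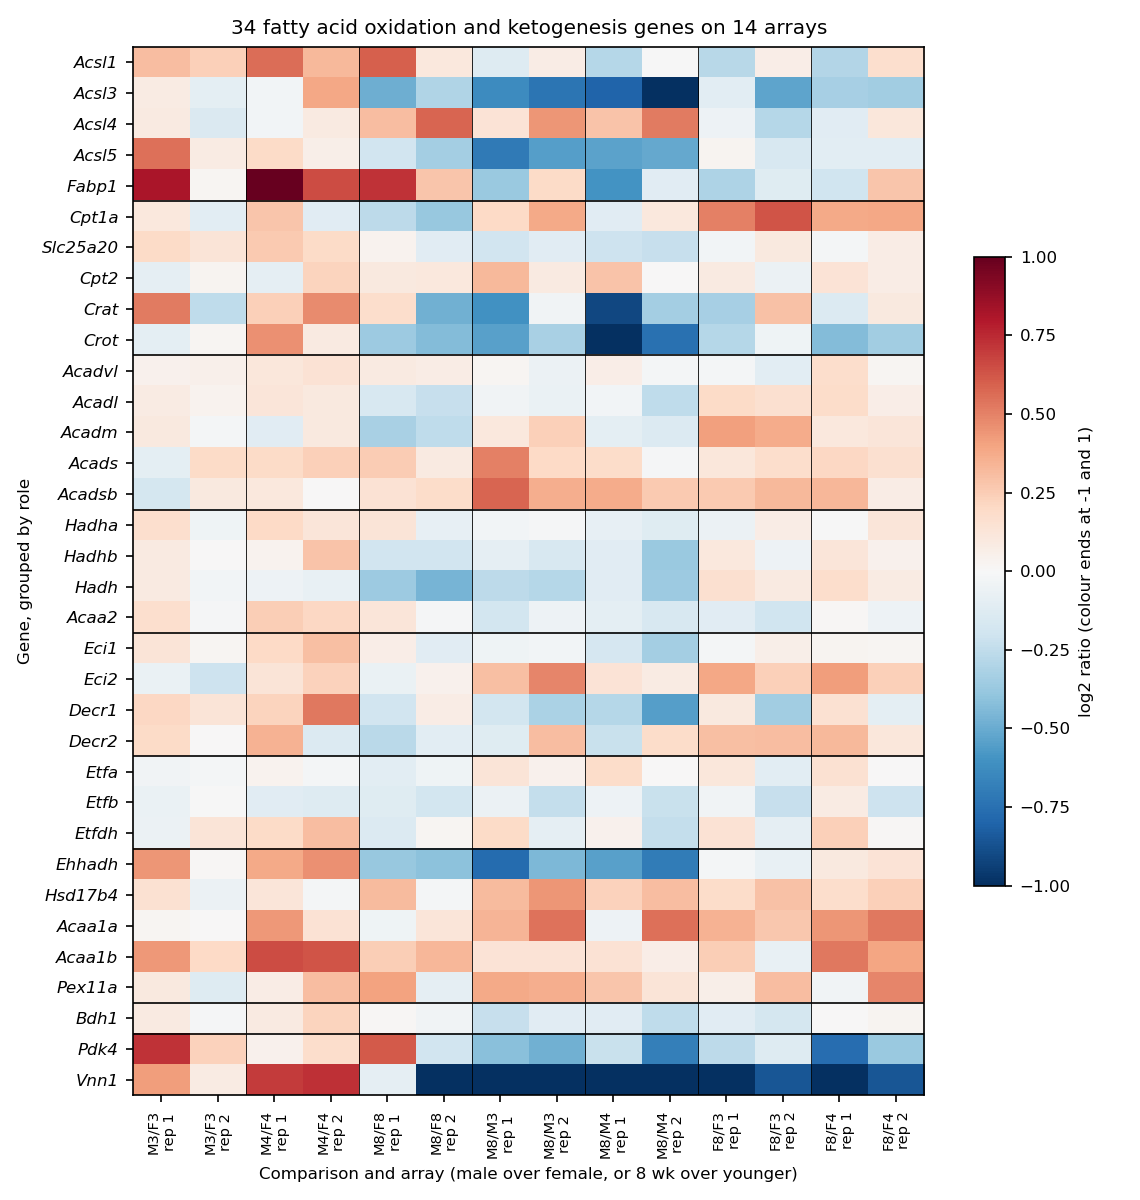
Log2 ratio of the 34 genes (rows, grouped by role, lines between groups) on the 14 arrays (columns, 2 per comparison), red for higher and blue for lower in males or at 8 wk, with the colour ending at -1 and 1. Among the stronger colours, Fabp1, Acaa1b and Vnn1 are red on both M4/F4 arrays. Acsl3, Acsl5, Ehhadh and Vnn1 are blue on the M8/M3 and M8/M4 arrays.

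Most differences were small, and more of them were resolved by adjusted p alone. By that rule, 4 genes were higher in males in M3/F3 (background 1.25%), namely Acaa1b, Acsl1, Fabp1 and Slc25a20, and 0 lower (background 1.63%). In M4/F4, 10 genes were higher in males (background 3.44%) and 0 lower (background 4.46%). In M8/F8, 2 were higher (background 10.2%) and 6 lower (background 11.5%). In M8/M3, 5 were higher at 8 wk (background 21.7%) and 7 lower (background 20.3%), and in M8/M4, 2 were higher (background 14.8%) and 11 lower (background 14.8%). In females, F8/F3 had 5 higher (background 17.0%) and 0 lower (background 16.6%), whereas F8/F4 had 5 higher (background 10.6%) and 1 lower (background 10.7%). In all, 24 of 34 genes passed the adjusted p in at least 1 comparison (background 56.3%). The remaining 10, Acsl4, Cpt2, Acadl, Hadha, Decr2, Etfa, Etfb, Pex11a, Bdh1 and Pdk4, passed in none. The counts in M8/F8, M8/M3 and M8/M4 include the 3 replicate 2 arrays that stood apart in fat cell transcripts. Passes there by genes other than Vnn1 depended on those arrays, without which 1 array per comparison was left. The 6 genes lower in M8/F8 then had ratios of -0.44 to -0.31, and the 2 higher had 0.46 and 0.48.

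The ratios of the group as a whole lay to the male side at 4 wk, and less so at 3 wk. In M4/F4, 30 of 33 genes had a fitted ratio above 0 (90.9%, against 50.9% of all named genes tested), and 23 of 33 were above 0 on both arrays (69.7% against 29.8%). The median log2 ratio was 0.16 against 0.003 for all genes. Each M4/F4 array showed it alone: 27 of 33 genes were above 0 on replicate 1 and 27 of 33 on replicate 2, with medians of 0.191 and 0.188. The only genes below 0 in the fit were Etfb, Hadh and Acadm, at -0.12, -0.07 and -0.01. At 3 wk the median of the group was 0.046, 24 of 33 genes were above 0 (72.7% against 49.5%) and 15 of 33 were above 0 on both arrays (45.5% against 25.6%). The M3/F3 arrays differed in this: 25 of 33 genes were above 0 on replicate 1, with a median of 0.097, and 20 of 33 on replicate 2, with a median of 0.015. At 8 wk the median was -0.025, with 8 of 33 above and 13 below 0 on both arrays, which for all genes were 33.5% and 33.8%. In M4/F4, 3 of 33 genes lay beyond 1.5-fold: Fabp1, Acaa1b and, without passing the test, Vnn1.

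**Figure D2:**
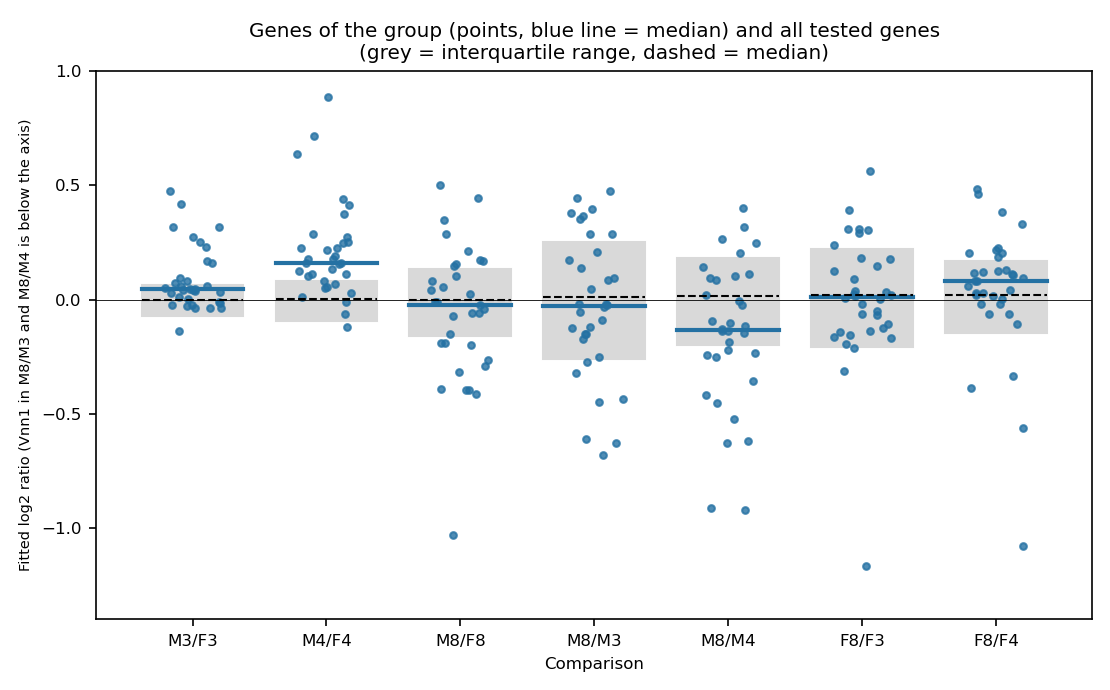
Fitted log2 ratios of the genes tested in each comparison (points), with their median (blue line), the interquartile range of all named genes tested (grey box) and the median of all genes (dashed line). The M4/F4 median of 0.162 lies above the grey box, which ends at 0.082, while the other medians lie inside their boxes. Vnn1 in M8/M3 and M8/M4 lies below the axis.

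From 4 to 8 wk the ratios of the group lay mostly below 0 in males and mostly above 0 in females. In M8/M4, 23 of 34 genes had a ratio below 0 (67.6%, against 47.8% of all genes) and the median was -0.13, while in F8/F4, 25 of 34 were above 0 (73.5% against 53.5%) and the median was 0.08. On single arrays, 23 of 34 genes were below 0 on each M8/M4 array, and 22 and 26 of 34 were above 0 on the F8/F4 arrays. From 3 wk the medians were near 0, at -0.03 in M8/M3 and 0.01 in F8/F3. The difference between the sexes was tested directly. No gene passed in M8/M3 minus F8/F3 (background 3.35%) or M8/M4 minus F8/F4 (background 1.31%), and none passed by adjusted p alone (backgrounds 6.49% and 2.08%). At an unadjusted limma p under 0.05, 10 and 19 of 34 genes passed (backgrounds 26.2% and 17.6%). Beyond 1.5-fold as well there were 0 and 2, Crat and Ehhadh from 4 wk (background 4.69%). The fitted difference from 4 to 8 wk was below 0 for 28 of 34 genes, with a median of -0.23 against -0.01 for all genes. Read on the sex arrays as M8/F8 minus M4/F4, it was below 0 for 29 of 34. From 3 wk it was below 0 for 19 of 34, in a comparison of M8/M3 with F8/F3 that crosses slides and scan days, and for 23 of 34 as M8/F8 minus M3/F3, which shared both. The smallest adjusted p were 0.0599, for Hadh from 3 wk at -0.40 ± 0.09 (SE), and 0.0619, for Slc25a20 from 4 wk at -0.25 ± 0.05 (SE). On the sex arrays, Hadh from 3 wk (-0.45, adjusted p = 0.0415) and Etfdh from 4 wk (-0.31, adjusted p = 0.0425) passed by adjusted p alone. A fit of 6 group means to all arrays called 3 genes from 4 to 8 wk, namely Crot, Ehhadh and Vnn1, so that these calls depended on the fit. All 4 male age arrays lay below all 4 female ones for 9 of 34 genes, which held for 8.23% of all named genes tested. These were Acsl3, Acsl5, Slc25a20, Acadl, Hadhb, Hadh, Eci1, Ehhadh and Vnn1, and the direct test of the difference on the age arrays passed for none of them.

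**Figure D3:**
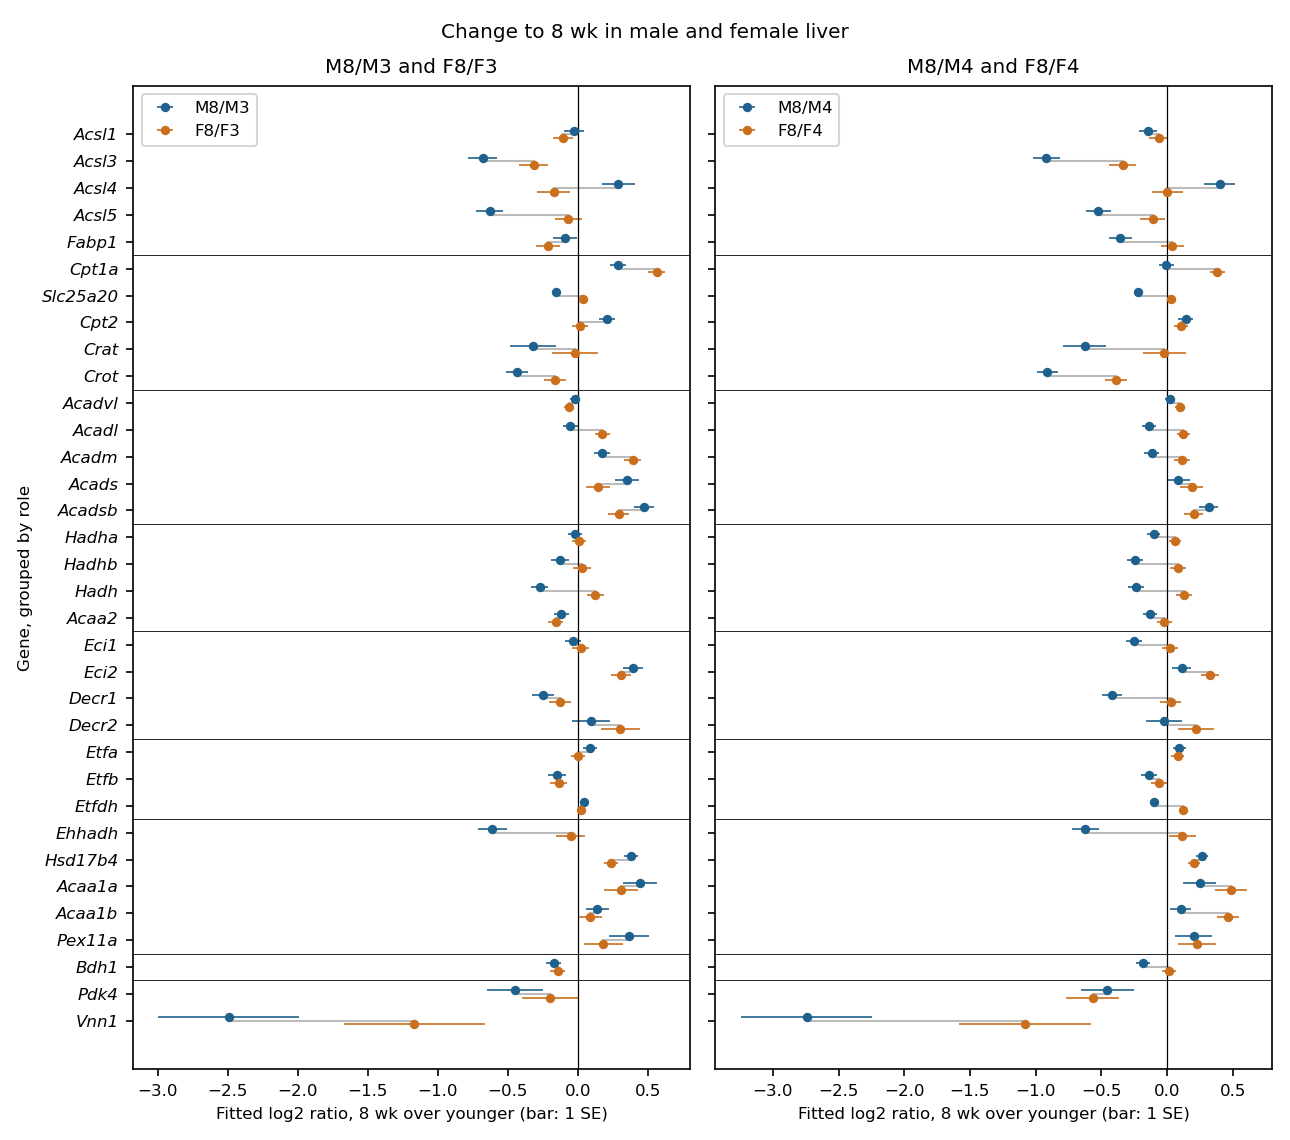
Fitted log2 ratio of 8 wk over 3 wk liver (left) and over 4 wk liver (right) for each gene in males (blue) and females (orange), with bars of 1 SE. In the right panel the male point lies to the left of the female point for 28 of 34 genes, by most for Vnn1, while Acsl4 lies the other way.

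Other transcripts moved strongly with age in the same pools. All 8 mitosis markers fell in the 4 age comparisons, with medians of -3.53 and -2.88 in males (from 3 and 4 wk) and -3.15 and -2.85 in females. The clock genes Dbp, Nr1d1 and Tef rose in all 4, Dbp by 2.75, 2.90, 2.98 and 2.96, and Cry1 fell in all 4. The hour of killing and the feeding state are not given in the sources used here. Among the erythroid markers, Hba-a1, Slc4a1 and Epb42 fell in each of the 4, whereas Alas2, an enzyme of heme synthesis, rose in M8/M3 (1.37) and M8/M4 (0.98) and was higher in males in M4/F4 (0.78) and M8/F8 (1.89). Of 7 mesenchymal markers, all 7 lay below 0 in M8/M3, M8/M4 and F8/F4 and 6 in F8/F3, and 3 or 4 were called lower in each. Of 6 endothelial markers, Lyve1 alone was called, lower in M8/M3, M8/M4 and F8/F3. Of 6 lymphocyte markers, Cd3g alone was called, lower in M8/M3, M8/M4 and M8/F8, and of 5 muscle markers Acta1 fell in the 4 age comparisons. All 6 Kupffer cell and macrophage markers tested lay below 0 on both arrays in M8/M3, M8/M4, F8/F4 and M8/F8, and 5 of 6 did in F8/F3. The medians of those first 4 were -0.441, -0.527, -0.275 and -0.575. Of the 6, 2 were called lower in each male age comparison (backgrounds 10.0% and 6.38%) and 1 in each female one. Between the sexes, 3 of 6 were called lower in males in M8/F8, 1 of 6 in M4/F4 and 0 in M3/F3. The 8 hepatocyte markers had medians of -0.01 in M8/M3 and 0.13 in M8/M4, where Alb fell in both (-0.71 and -0.68) and Serpina1a rose in M8/M3 (0.83). In M4/F4, where the group lay to the male side, the 8 hepatocyte markers had a median of -0.05, with 0 called. The 8 clock genes tested in M4/F4 ran from -0.90 to 0.25 (median 0.001), with 0 called. Their list joins genes of night and day phase, so that a shift in phase can cancel in the median. The 6 Kupffer cell and macrophage markers were below 0 on both arrays in M4/F4 and in M3/F3, with medians of -0.29 and -0.27. The mitosis markers were above 0 for 7 of 8 in M4/F4 (median 0.21) and for 8 of 8, on both arrays, in M3/F3 (median 0.41), with 0 called in either. The part of these changes in the results on fatty acid oxidation genes was not tested, and in whole liver fewer cells of a type and less RNA per cell cannot be told apart.

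Fatty acid binding and activation held the gene with the larger of the called sex differences. Fabp1, the liver fatty acid binding protein, had log2 ratios of 1.12 and 0.65 on the M4/F4 arrays. Both were above 0, the fitted ratio was 0.89 ± 0.09 (SE), or 1.85-fold, and the adjusted limma p was 0.00116. At 3 wk its arrays disagreed, with 0.81 and 0.02. At 8 wk they gave 0.72 and 0.28, a fitted 0.50 with adjusted p = 0.0101. In 6 of 6 sex arrays Fabp1 was thus above 0, and the 1.5-fold limit was passed in M4/F4 alone. The difference between M8/F8 and M4/F4, -0.39 ± 0.12 (SE), had an adjusted p of 0.253. With age, M8/M4 was -0.60 and -0.11, while F8/F4 was -0.20 and 0.28, so that the female arrays lay on both sides of 0. The red channel held the male pool on replicate 1, and the replicate 1 ratio was the higher in all 3 sex comparisons. Without the dye term the call in M4/F4 was lost (adjusted p = 0.0599) at the same ratio, which ran from 0.81 to 0.895 over the 29 alternative settings, and in the other 28 the call held.

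The promoter of Fabp1 is shown because it was the only one of the group to hold the spaced repeat of receptor sites (DR1) that PPARalpha and other nuclear receptors are known to bind. It is given beside that of Acaa1b, the other gene called in M4/F4, in which the letters were not found. RefSeq windows of 300 bases (250 before to 50 after the start, GRCm38.p6) were held for 29 of the 34 genes. The pattern AGGNCANAGGNCA, searched on both strands, was found in 0.381% of 32851 such windows, and in 1 of the 29 genes, where it lay 67 to 55 bases before the Fabp1 start on the reverse strand. Capitals mark the match. The Fabp1 window is chr6:71199629-71199928 (+) and the Acaa1b window chr9:119157044-119157343 (-).
Fabp1: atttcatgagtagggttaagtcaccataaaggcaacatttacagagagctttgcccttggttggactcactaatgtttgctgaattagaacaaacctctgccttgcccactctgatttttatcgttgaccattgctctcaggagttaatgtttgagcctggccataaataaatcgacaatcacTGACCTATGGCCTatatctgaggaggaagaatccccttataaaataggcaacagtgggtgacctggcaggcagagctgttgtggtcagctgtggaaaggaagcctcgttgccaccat
Acaa1b: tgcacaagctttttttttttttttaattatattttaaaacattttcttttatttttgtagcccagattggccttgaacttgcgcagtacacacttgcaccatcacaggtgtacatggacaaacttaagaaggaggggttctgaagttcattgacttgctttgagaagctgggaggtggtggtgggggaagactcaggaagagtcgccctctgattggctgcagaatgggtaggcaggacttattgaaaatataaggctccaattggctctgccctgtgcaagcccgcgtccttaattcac
A pattern of growth hormone-activated STAT factors, TTCNNNGAA, was in 8.3% of all windows and in those of 3 of the 29 genes, Cpt2, Hadha and Hadhb, at 2 sites. The windows of Hadha and Hadhb, which are read in opposite directions, share 228 bases and hold the same site. A match describes letters and is no evidence of binding.

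The 4 acyl-CoA synthetases did not move together. Acsl1, the main long-chain synthetase of liver, was higher in males by adjusted p at all 3 ages, with fitted ratios of 0.27, 0.44 and 0.35 and 6 of 6 arrays above 0, and stayed within 1.5-fold. Its second probe, which was not the one read for the calls, gave 0.28, 0.60 and 0.55, the M4/F4 value lying beyond 1.5-fold. Acsl3, a synthetase of the endoplasmic reticulum and lipid droplets, was lower at 8 wk in males, with -0.63 and -0.73 in M8/M3 and -0.80 and -1.04 in M8/M4. The fitted M8/M4 ratio was -0.92 ± 0.10 (SE), with adjusted p = 0.00195. All 4 of these arrays lay below the F8/F3 and F8/F4 arrays of Acsl3, which ran from -0.53 to -0.11, but the direct test of that difference did not pass (adjusted p = 0.247 from 3 wk and 0.136 from 4 wk). Acsl5 was called in M8/M3, where its arrays gave -0.70 and -0.55 (adjusted p = 0.00659). In M8/M4 its arrays gave -0.54 and -0.51, a fitted ratio of -0.52 that passed by adjusted p (0.0134) and fell short of 1.5-fold, and its 4 female age ratios lay between -0.16 and 0.03. Acsl4, which prefers arachidonate, ran the other way, with 0.14 and 0.44 in M8/M3 and 0.29 and 0.52 in M8/M4, and did not pass the test (adjusted p = 0.175 and 0.072).

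**Figure D4:**
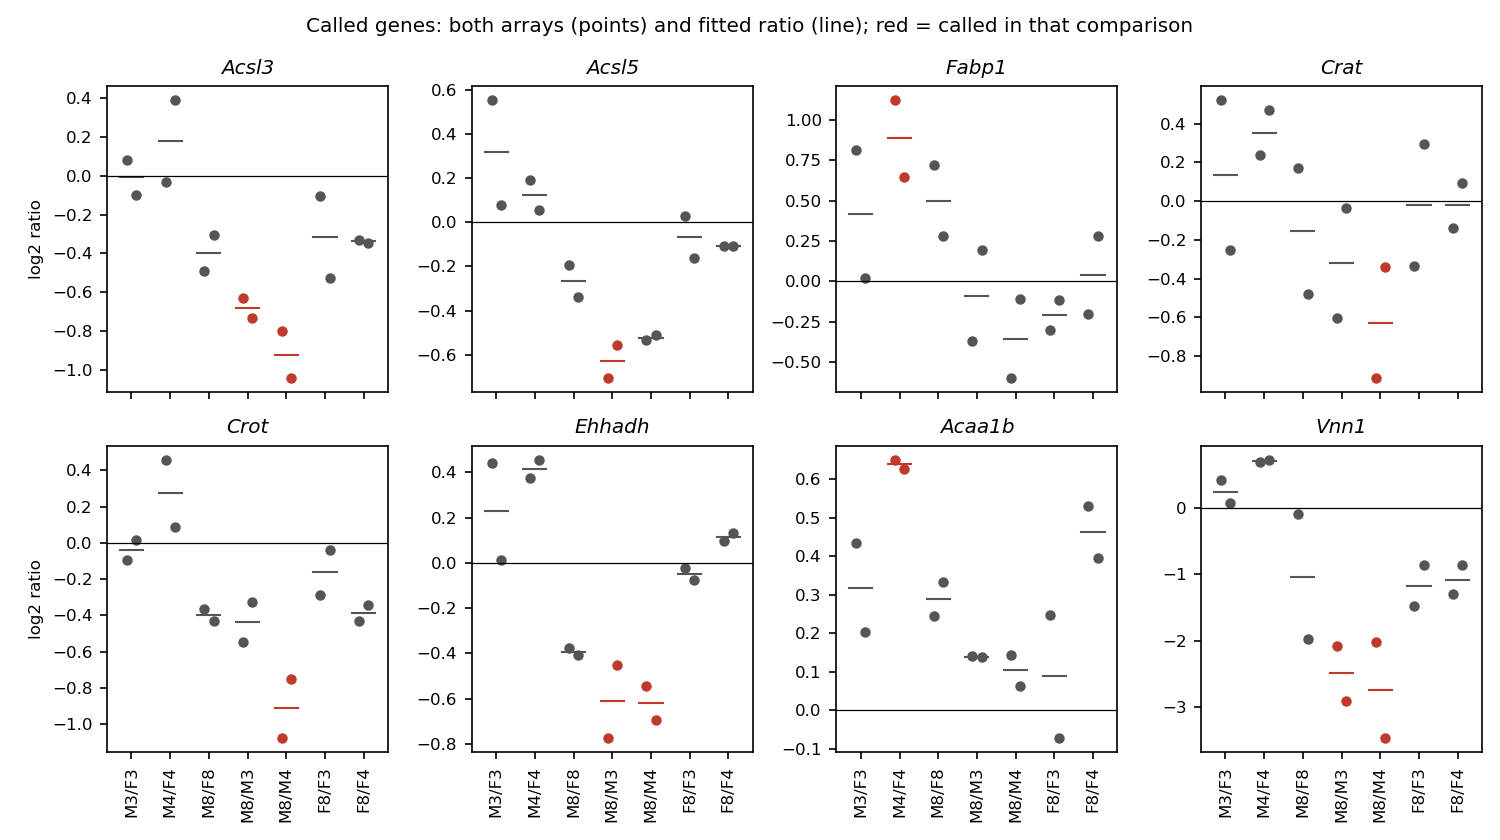
Log2 ratios of the 8 called genes on both arrays of each comparison (points) and their fitted ratio (line), red where called, each panel on its own scale. Both points lie on the same side of 0 in each of the red comparisons, and the Vnn1 arrays of M8/F8 lie apart, at -0.09 and -1.98.

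In the carnitine shuttle the largest changes were those of the peroxisomal export step. Crot, the octanoyltransferase that passes chain-shortened acyl groups from peroxisomes to carnitine, gave -1.07 and -0.75 in M8/M4, a fitted ratio of -0.91 ± 0.08 (SE) or 1.88-fold, with adjusted p = 0.000852. It was also lower by adjusted p, within 1.5-fold, in M8/M3 (-0.55 and -0.32), in F8/F4 (-0.43 and -0.35) and in M8/F8 (-0.36 and -0.43). Its F8/F3 arrays gave -0.29 and -0.04. Each of the 8 age arrays of Crot was thus below 0, the M8/M4 arrays being the lowest. Crat, the short-chain acetyltransferase, was called in M8/M4 from a dim probe with -0.91 and -0.34 (adjusted p = 0.0474), and lost the call in 19 of 29 alternative settings. Cpt1a, the outer-membrane transferase that commits long-chain acyl groups to oxidation, rose by adjusted p in both sexes from 3 wk, with 0.50 and 0.63 in F8/F3 and 0.20 and 0.38 in M8/M3 (adjusted p = 0.0186). From 4 wk it rose in F8/F4, with 0.38 and 0.39. In F8/F3 its fitted ratio of 0.56 ± 0.06 (SE) was 1.48-fold, just inside the limit, and it was called there without F8/F3 replicate 2 and with another background correction and normalization together (normexp and loess). Its M8/M4 arrays gave -0.12 and 0.11. The difference between the sexes in its change did not pass (adjusted p = 0.133 and 0.0885), and in M8/F8 it was lower, with -0.26 and -0.38 (adjusted p = 0.0128). Its second probe gave 0.45 in F8/F3 and -0.20 in M8/F8. Slc25a20, the carnitine-acylcarnitine translocase, showed small differences with a narrow spread: 0.22 ± 0.03 (SE) in M4/F4 and -0.22 ± 0.03 (SE) in M8/M4, with adjusted p = 0.00568 and 0.00598. Cpt2, the inner-membrane transferase, passed in no comparison, its fitted ratios lying between -0.03 and 0.21.

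In the mitochondrial spiral, 0 of the 5 acyl-CoA dehydrogenases were called in any of the 7 comparisons, where 23.1% of all named genes tested were called in at least 1. Their fitted ratios lay between -0.29 and 0.47. Acadm, the medium-chain dehydrogenase, was 0.41 and 0.37 in F8/F3 (adjusted p = 0.00584) and -0.33 and -0.25 in M8/F8 (adjusted p = 0.0185). Acadsb, of short branched chains, rose by adjusted p in males from 3 wk (0.58 and 0.37) and 4 wk (0.37 and 0.26) and in F8/F3 (0.26 and 0.32), and its F8/F4 arrays were above 0 as well. Acads, the short-chain enzyme, rose in M8/M3 alone by that rule (0.51 and 0.20). Acadvl, which starts the oxidation of long chains at the inner membrane, was 0.12 and 0.15 in M4/F4 (adjusted p = 0.0386). Acadl, the long-chain enzyme, passed in no comparison.

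Among the enzymes that complete the spiral, Hadh had the clearest sex difference. This short-chain hydroxyacyl-CoA dehydrogenase was lower in adult males, with -0.37 and -0.46 in M8/F8 (fitted -0.42 ± 0.06 SE, adjusted p = 0.00607), and fell in M8/M3 with -0.26 and -0.29. Both passes depended on the 3 replicate 2 arrays of 8 wk males. Without these, the fitted ratios of Hadh, from 1 array each, were -0.36 in M8/F8 and -0.26 in M8/M3. At 3 and 4 wk its sex ratios lay between -0.08 and 0.09 on the arrays. Hadha and Hadhb, the subunits of the trifunctional protein, gave 0.16 and 0.16 in M4/F4 and -0.10 and -0.24 in M8/M4 as fitted ratios. Only Hadhb passed the adjusted p there, in M8/M4 (0.0448). Acaa2, the thiolase of this route, was 0.25 and 0.21 in M4/F4 (adjusted p = 0.0351).

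The auxiliary enzymes, which handle double bonds, were 4 of 4 above 0 in M4/F4 and 4 of 4 below 0 in M8/F8, the latter between -0.19 and -0.01 with none past the test. Decr1, the mitochondrial dienoyl-CoA reductase, was 0.22 and 0.53 in M4/F4 (adjusted p = 0.0215) and -0.29 and -0.55 in M8/M4 (adjusted p = 0.0144). Its 2 probes differed in sign in M8/M3, at -0.25 and 0.13, and in F8/F3, at -0.12 and 0.19, whereas both were above 0 in M4/F4 and below 0 in M8/M4. Eci1, the mitochondrial enoyl-CoA isomerase, followed Decr1 with 0.20 and 0.30 in M4/F4 and -0.17 and -0.34 in M8/M4. Eci2, its peroxisomal counterpart, instead rose with age by adjusted p in M8/M3 (0.30 and 0.49), F8/F3 (0.38 and 0.24) and F8/F4 (0.42 and 0.24). Decr2, the peroxisomal reductase, passed in no comparison. Of the electron transfer proteins, which hand electrons from the dehydrogenases to ubiquinone, Etfdh was 0.19 and 0.31 in M4/F4 (fitted 0.25 ± 0.03 SE, adjusted p = 0.00433). The flavoprotein subunits Etfa and Etfb had fitted ratios between -0.15 and 0.09 and passed in none.

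The peroxisomal genes went in different directions with age. Ehhadh, the bifunctional enzyme and a classical target of PPARalpha, gave -0.77 and -0.45 in M8/M3 and -0.55 and -0.70 in M8/M4, with adjusted p = 0.00961 and 0.00903. Its female age arrays lay between -0.08 and 0.13, above the male ones. Its sex ratio was above 0 on the M4/F4 arrays (0.38 and 0.46, adjusted p = 0.0402) and below 0 on the M8/F8 arrays (-0.38 and -0.41, adjusted p = 0.0496). The change in that ratio had an adjusted p of 0.0738 on the age arrays and 0.0626 on the sex arrays, at -0.74 ± 0.15 and -0.81 ± 0.15 (SE). Hsd17b4, the other bifunctional enzyme, which also serves branched chains, rose by adjusted p in all 4 age comparisons, with 8 of 8 arrays between 0.17 and 0.44. In M8/M3 its fitted ratio was 0.38 ± 0.05 (SE), where that of Ehhadh was -0.61 ± 0.10 (SE). Acaa1b, a peroxisomal thiolase, had 0.65 and 0.63 in M4/F4 (fitted 0.64 ± 0.08 SE, 1.56-fold, adjusted p = 0.0032), 0.43 and 0.20 in M3/F3 and 0.24 and 0.33 in M8/F8. All 6 arrays were above 0, and the call in M4/F4 held in 28 of 29 alternative settings. Its paralog Acaa1a gave 0.43 and 0.14 in M4/F4 and was near 0 in M3/F3 (0.02 and 0.00). Both thiolases rose in F8/F4 by adjusted p, Acaa1b with 0.53 and 0.40 and Acaa1a with 0.44 and 0.52. The transcripts are closely related, and how far the probes tell them apart cannot be read from these arrays. Pex11a, which acts in peroxisome division, passed in no comparison.

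Vnn1, a pantetheinase whose product feeds coenzyme A metabolism, had the largest changes of the group. Its M8/M3 arrays gave -2.08 and -2.91 and its M8/M4 arrays -2.02 and -3.47, fitted ratios of 5.63-fold and 6.70-fold with adjusted p = 0.0187 and 0.013. The size depended on single arrays, and leaving out 1 array at a time gave 3.80-fold to 8.35-fold in M8/M3 and 3.53-fold to 12.72-fold in M8/M4. The female arrays gave -1.48 and -0.86 from 3 wk and -1.30 and -0.86 from 4 wk, and neither ratio passed the test (adjusted p = 0.196 and 0.233). All 8 age arrays were below 0, the male ones lower than the female ones, but the direct test of that difference did not pass (adjusted p = 0.392 from 3 wk and 0.382 from 4 wk). Without the 3 replicate 2 arrays of 8 wk males, Vnn1 was 3.75-fold and 3.61-fold lower in M8/M3 and M8/M4 (adjusted p = 0.0346 and 0.0357). The female ratios, unchanged at 2.25-fold and 2.11-fold, then passed as well (adjusted p = 0.0386 and 0.0427), while the M8/F8 ratio was -0.26. The sex arrays at 8 wk disagreed, at -0.09 and -1.98, and the SE of each fitted ratio was 0.50. The call in M8/M3 was lost without M8/M3 replicate 1 or replicate 2, and that in M8/M4 without M8/M4 replicate 2, as were the calls of Ehhadh and Crat there. Leaving out M8/M3 replicate 1 also ended the calls of Acsl3, Acsl5 and Ehhadh in M8/M3, while those 3 calls held without M8/M3 replicate 2. Pdk4, the kinase that shuts pyruvate dehydrogenase when fat is burnt, was below 0 on 8 of 8 age arrays, from -0.76 to -0.13, and passed in none.

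Bdh1, the ketone body enzyme among the 34 genes, interconverts acetoacetate and hydroxybutyrate. It passed in no comparison, with fitted ratios between -0.18 and 0.16, and its 3 probes lay within that direction in M4/F4 (0.16 to 0.19) and M8/M4 (-0.27 to -0.18). The neighbouring ketone body genes, listed as 7 further genes, held 3 called in at least 1 comparison (background 23.1%). Slc16a6, a transporter that lets ketone bodies out of the hepatocyte, was lower at 8 wk in all 4 age comparisons, with fitted ratios of -1.26, -1.20, -1.20 and -0.85. Bdh2 rose in M8/M3 (1.52) and F8/F3 (1.17), and Oxct1, which takes part in ketone body use, fell in M8/M3 (-0.70).

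Beyond the 34 genes, 15 other listed genes of mitochondrial oxidation were read. In males, 2 of them were called higher in M8/M3 (background 7.81%) and 1 in M8/M4 (background 4.44%). In females, F8/F3 held 2 called higher (background 5.08%), as did F8/F4 (background 2.28%), and 0 were called lower in any of these. They were Acad12, called in all 4 at 0.60 to 0.93, and Slc22a5, the carnitine importer, at 0.97 in M8/M3, 0.98 in F8/F3 and 0.69 in F8/F4. Among 17 further peroxisomal genes, 5 were called higher in M8/M3 (background 7.81%), among them Amacr, Scp2, Phyh and Slc27a2. There, 2 were called lower (Hacl1 and Abcd2, background 10.0%). F8/F3 and F8/F4 held 0 in either direction (backgrounds 11.7% and 6.00%). Abcd2, a peroxisomal importer of very long chains, was lower in adult males, at -3.48 in M8/M3, -3.23 in M8/M4 and -3.73 in M8/F8. The difference between the sexes in its change passed the test, at -4.02 from 3 wk and -3.30 from 4 wk (adjusted p = 0.00974 and 0.0317). Scp2, the thiolase of branched chains, differed the other way from 3 wk, at 0.89 (adjusted p = 0.00238).

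Of 11 listed regulators and targets of PPARalpha, some had larger ratios than any of the 34 genes but Vnn1. Ppara itself was not called in any comparison, and its ratio was 0.73 and 0.43 in F8/F3 (adjusted p = 0.0273). Cyp4a10 and Cyp4a14, omega-hydroxylases of fatty acids and closely related paralogs, were lower in adult males: in M8/M4 the fitted ratios were -2.70 and -3.05, against 0.05 and -0.16 in F8/F4. The sex difference in that change passed for both (adjusted p = 0.0105 and 0.0401). At 4 wk their sex ratios were 0.73 and 1.10 and did not pass on these arrays, while the study's qPCR of single livers found Cyp4a10 significantly male-biased at 4 wk. Fgf21, a hormone of the fasted liver, was 1.59 and 1.58 on the M4/F4 arrays (adjusted p = 0.0156), and fell in M8/M3, M8/M4 and F8/F3. Ppargc1a, a coactivator of these genes, was lower in males in M4/F4, at -1.19 and -1.02 (adjusted p = 0.0143). Pdk2 rose and Pdk3 fell in all 4 age comparisons, Pdk2 by 0.67 to 0.94.

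The step from 3 to 4 wk was not hybridized and was read only as the difference of the 2 age ratios that share 8 wk liver, as a description. In males the step crosses slides and scan days, since M8/M3 was scanned on day 1 and M8/M4 on day 2, while both female comparisons lay on the same slides. M3/F3 and M4/F4 shared their slides and scan day, and there the fitted sex ratio was 0.42 at 3 wk and 0.89 at 4 wk for Fabp1, and 0.32 and 0.64 for Acaa1b. In males the fitted difference was above 0 for 28 of 34 genes (82.4%, against 52.3% of all named genes tested), with a median of 0.12. In females it was above 0 for 11 of 34 (32.4% against 50.5%), with a median of -0.04. Fabp1 was 0.27 in males and -0.25 in females, Crot 0.48 in males and 0.23 in females, and Acaa1b 0.04 in males and -0.37 in females. These values rest on the same arrays as the age comparisons and add no independent observation.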

How the data were processed

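Male and female CD-1 mouse liver was compared on 14 Agilent arrays that lay on 4 slides scanned on 2 days. The authors extracted and normalized (linear and LOWESS) the scans with Feature Extraction 10.7.1.1. The deposited files hold log10 ratios of red over green, spot intensity and flags, and per the file headers the array annotation used mm9. The deposited log10 series table matched the scanner ratios with a largest difference of 0. Between 0 and 10 non-uniform spots per array were left out. Spots of a probe were averaged (39429 probes, 26055 with a RefSeq gene name), put on the log2 scale and, by the labels' dyes, given as male over female or older over younger.

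In R 4.3.3 with limma 3.58.1, all probes were fitted with 7 comparisons and 1 dye term (6 residual and 0.8558 prior degrees of freedom). The p-values were adjusted by Benjamini-Hochberg over all probes and comparisons, and within each interaction. Called genes had adjusted p below 0.05, a ratio beyond 1.5-fold and signal well above background. An SE is that of the fitted ratio. The study's Rosetta error model was approximated in part as an alternative (error-weighted mean, p below 1e-04), without its error estimate from replicate arrays. The 34 genes, the gene lists and the rule for naming genes (values for each called gene, ranges and counts for the others, single values for related pairs) were chosen with earlier results of these data known. Array number limits the precision. Some listed genes are not reported here.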

Additional observations from a re-analysis of the deposited data

How the results depend on the processing

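The ratios of all called genes kept their direction in the settings tried. Of the calls, Acaa1b in M4/F4 and Acsl3 and Crot in M8/M4 held in 28 of 29, as did Fabp1, which was lost without the dye term, and Crat was lost in 19 of 29. The counts that moved by over 1.5 times were the following. Without the fold threshold, 4, 10 and 8 genes passed between the sexes at 3, 4 and 8 wk (M3/F3, M4/F4 and M8/F8), 12 and 13 in males (M8/M3 and M8/M4) and 5 and 6 in females (F8/F3 and F8/F4). Without the dye term, 1 gene passed in M4/F4. With the error-weighted mean, 1 passed in each of M8/F8, F8/F3, F8/F4 and both interactions (Vnn1). With normexp and loess, 1 passed in F8/F3 (Cpt1a), 1 in the 3 to 8 wk interaction (Acsl5) and 1 in the 4 to 8 wk interaction (Ehhadh). A fit of 6 group means gave 3 in the 4 to 8 wk interaction (Crot, Ehhadh and Vnn1). A fit of bright probes only, added after seeing the data, gave 1 there (Ehhadh), and the interaction read on the sex arrays, also added after seeing the data, gave 0 for both. With 8 wk male arrays of number 1 only, added after seeing fat cell transcripts on those of number 2, 1 gene passed in M4/F4 (Fabp1) and 1 in each of the 4 age comparisons (Vnn1), on 3 residual degrees of freedom, and Acaa1b, Acsl3 and Crot were lost. Beyond their construction, the cause of these moves was not tested. Leaving out 1 array at a time gave 0 to 1 in M3/F3 (1, Fabp1, without M3/F3 replicate 2), 2 to 2 in M4/F4, 0 to 4 in M8/M3 (0 without replicate 1), 2 to 5 in M8/M4 (2, Acsl3 and Crot, without replicate 2), 0 to 1 in F8/F3 (1, Cpt1a, without replicate 2) and 0 elsewhere, the lone array being assumed to vary like the others. With the replicate block, the counts were 0, 2, 0, 4, 4, 0 and 0, Crat being lost, and 0 in both interactions. The methods place the first pools of M3/F3 on replicate 1 and the second on replicate 2. Deviations of same-numbered arrays correlated above 0.1 in 9 of 9 pairs of comparisons with the dyes the same way round, and below 0 in 11 of 12 with the dyes reversed (-0.489 to 0.614 in all), so that shared pools, dye and slide cannot be told apart in this pairing check. The slide as a block, shared pools in the covariance, other probe choices, filters and centring moved no count by over 1.5 times. Signal over background limits Crat alone among the 34 genes, and 2 arrays per comparison limit all of them.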
